A study of Mus musculus with 8 samples.

Results

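Open promoters in WT LSK cells were set against gene expression in WT pre-B cells, from 4 of the 8 libraries of the series: 2 Omni-ATAC-seq libraries of LSK cells and 2 RNA-seq libraries of pre-B cells. LSK cells (lineage-negative, Sca-1+, cKit+) are the bone marrow fraction that holds hematopoietic stem cells and multipotent progenitors, and they were sorted as IL7R-. Pre-B cells were sorted from the B220+ IgM- fraction, a gate that also takes pro-B cells, and each RNA-seq library came from a pool of mice. All WT animals were Dido1 flE16/+;R26R-EYFP;iCreVav1 littermates of 6 to 10 weeks on a C57BL/6 background. They therefore carried the Cre driven by Vav1, which is active across blood cells, and 1 floxed Dido1 allele. The Dido1∆E16 pre-B libraries used in 1 comparison came from Dido1 flE16/∆E16;R26R-EYFP;iCreVav1 mice of the same age. Each of the 19573 genes that the tables of the series name was classed by whether a MACS2 peak annotated as promoter (from 1 kb before to 200 bp after a transcription start site, TSS) was called in both, in exactly 1 or in neither WT LSK library. This gave 8981 genes with a promoter peak in both libraries, 3578 with a peak in 1 library and 7014 with none. Gene expression was the sum of the TPM (a share of all transcripts, corrected for transcript length) of the gene's transcripts, and a gene counted as expressed from 1 TPM.

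In ATAC-seq a transposase cuts DNA that is not covered by nucleosomes, so a peak at a promoter marks accessible chromatin and not transcription itself. Promoters rich in CpG dinucleotides, which serve most housekeeping genes, are commonly accessible in many cell types. Promoters of lineage genes are often poor in CpG and become accessible as transcription factors bind them. During B cell development EBF1, TCF3 (E2A) and PAX5 turn on the genes of the pre-B cell receptor, the complex of an immunoglobulin heavy chain with the surrogate light chain (VPREB1, IGLL1) and the signal chains CD79A and CD79B. Stem cell genes such as Kit, Flt3 and Cd34 are shut down along the same path.

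Sequences just before the TSS of single genes are given as examples. The first 3 belong to B-lineage genes without an LSK promoter peak, the next 2 to genes of similar level in pre-B cells whose promoters were open in both LSK libraries, and the last 2 to genes open in both LSK libraries and listed at 0 TPM in both WT pre-B libraries. Each line gives the 100 bases before the start of the gene's highest transcript in the reference genome (GRCm38.p6), 5′ to 3′ on the gene's strand, with CpG dinucleotides in capitals. Uggt2 and Arrdc4 had no transcript above 0, so the first by identifier was used, and its start need not be the one with the peak.
Vpreb3 (chr10:75948212-75948311, plus strand): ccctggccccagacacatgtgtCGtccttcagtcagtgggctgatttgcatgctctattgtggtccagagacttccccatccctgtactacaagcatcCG
Cd79a (chr7:24897411-24897510, plus strand): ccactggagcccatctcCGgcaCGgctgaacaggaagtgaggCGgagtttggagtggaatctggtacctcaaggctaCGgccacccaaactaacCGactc
Spib (chr7:44532072-44532171, minus strand): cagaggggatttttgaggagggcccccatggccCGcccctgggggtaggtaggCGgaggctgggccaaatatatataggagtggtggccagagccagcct
Tmsb4x (chrX:167209219-167209318, minus strand): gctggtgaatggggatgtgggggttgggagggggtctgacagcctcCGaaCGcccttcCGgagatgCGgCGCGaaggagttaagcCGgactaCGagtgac
Eef1a1 (chr9:78481725-78481824, minus strand): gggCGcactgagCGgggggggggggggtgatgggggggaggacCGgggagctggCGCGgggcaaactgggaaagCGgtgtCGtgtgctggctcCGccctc
Uggt2 (chr14:119006718-119006817, minus strand): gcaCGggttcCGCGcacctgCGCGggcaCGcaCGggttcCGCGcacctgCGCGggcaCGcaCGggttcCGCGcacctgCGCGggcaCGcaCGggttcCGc
Arrdc4 (chr7:68749239-68749338, minus strand): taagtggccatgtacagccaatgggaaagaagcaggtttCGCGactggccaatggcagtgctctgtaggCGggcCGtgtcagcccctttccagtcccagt

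Among the B-lineage promoters, Vpreb3 and Spib held 2 CpG each in these 100 bases and Cd79a held 5. Tmsb4x and Eef1a1 held 8 each. Uggt2 held 20, in a tandem repeat, and Arrdc4 held 4. Over the window from 250 bases before to 50 bases after the TSS, the CpG ratio (observed over expected from the C and G content) was 0.0796 for Spib, 0.148 for Vpreb3 and 0.303 for Cd79a, against 0.988 for Tmsb4x, 0.697 for Eef1a1, 1.37 for Uggt2 and 0.422 for Arrdc4. The octamer ATGCAAAT, a binding motif of POU2F1 and POU2F2, was found on either strand in the windows of Vpreb3 and Tmsb4x, and in 1.67% of all windows.

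The libraries differed in depth and content, which touches the results below. WT LSK replicates 1 and 2 held 10249256 and 52050898 tags and gave 27352 and 57739 MACS2 peaks, of which 9803 and 13038 were promoter peaks, so a peak in 1 library was mostly one of the deeper replicate 2. TPM values carry no read counts, and the depth of the RNA-seq libraries is not given in the sources used here. Symbols paired with transcripts in the deposited tables covered 75.1% and 74.9% of the TPM of WT pre-B replicates 1 and 2. Transcripts without a symbol were therefore also assigned through the GENCODE gene that held at least 50% of their exonic bases, which raised the cover to 97.5% and 97.4% and the number of genes to 26001. For 2130 genes (10.9%) the completed sum was at least 1.5 times the first and at least 1 TPM. Tcf3 and Cd37 were at 0 in the first sum and at mean TPM of 1027 and 2119 in the completed one. Class shares below are given for both sums, and values of single genes and gene lists are completed sums. Among the 79 genes of cytosolic ribosomal proteins, Rpl26 was listed at 0 in both WT libraries, so a listed 0 may be a failed estimate.

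The WT pre-B libraries expressed genes that mark B-lineage cells. Cd79a had 3648 and 4476 TPM in replicates 1 and 2, and Pax5 had 805 and 835 TPM. In LSK cells the promoters of Kit, Flt3 and Cd34 had a peak in both libraries. Ly6a, which encodes the Sca-1 antigen of the sort, had no promoter peak in either and 1 peak elsewhere, in replicate 2. All 21 genes of the neutrophil and monocyte list (22 genes) with unequal values were higher in WT pre-B replicate 2, with summed TPM of 294 and 2469 in replicates 1 and 2. S100a8, a calcium-binding protein of neutrophils, had 69.7 and 601 TPM. Hba-a2, an alpha globin gene, had 244 and 738 TPM. Of the 41 DNA replication genes 38 were higher in replicate 1, with summed TPM of 4171 and 1836. Among all genes with unequal values 59.3% were higher in replicate 1. Fewer cells of a type and less RNA per cell cannot be told apart in such bulk libraries. The part of these differences in the results was not tested, and values are given for each library.

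Genes with an open promoter in LSK cells were more often expressed in pre-B cells than genes without one, and genes with a peak in 1 library lay between. Of the genes with a promoter peak in both LSK libraries, 70.3% and 68.9% were expressed in WT pre-B replicates 1 and 2 (mean 69.6% ± 0.984, SD, n = 2). With a peak in 1 library the shares were 47.0% and 45.7% (46.4% ± 0.889), and without a peak 19.2% and 19.1% (19.1% ± 0.0605). Over all 19573 genes, 48.6% had a mean TPM of at least 1 and 45.9% had a peak in both libraries. In each library the 3 classes lay further apart than the 2 libraries did within any class. With 2 libraries in 1 group no exact test over libraries can pass 0.05, and genes are not replicates, so no p-value is given.

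The completed sums set the classes further apart. There 79.7% and 78.3% of the 8981 genes with a peak in both libraries were expressed in replicates 1 and 2, against 53.8% and 52.8% of the 3578 with a peak in 1 and 15.9% and 15.5% of 13442 without one. Over all 26001 genes 43.5% had a mean TPM of at least 1. The class without a peak grew because the deposited tables do not name every gene. They name those assigned a peak in an LSK library of either genotype or entered in the authors' expression table. Genes without any WT MACS2 peak numbered 8385 by completed sums and 1957 with the deposited symbols. The median TPM of genes with a peak in both libraries was 15.7 and 14.0 in replicates 1 and 2 (25.4 and 22.6 by completed sums), and that of genes without a peak was 0 in both. With the calls of LSK replicate 2 alone, the mean of the open class's medians fell from 14.9 to 9.38. The middle class had medians of 0.00228 and 0, and of 2.58 and 2.04 by completed sums.

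**Figure D1:**
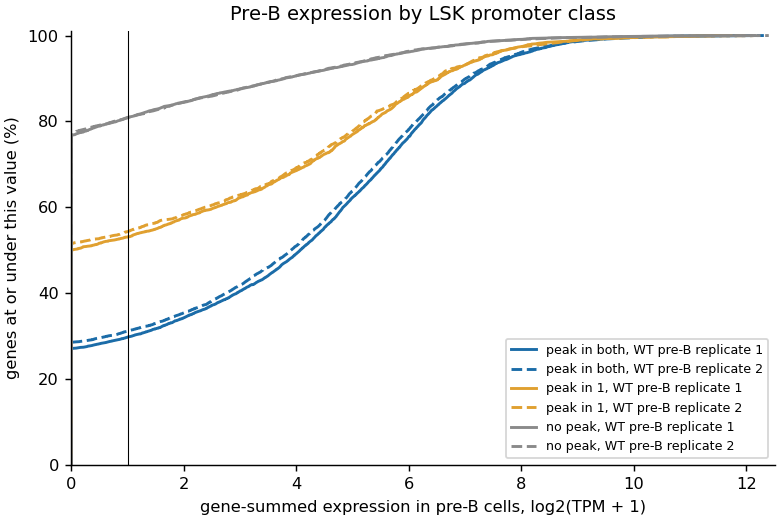
Cumulative share of genes (y axis, %) at or under a gene-summed expression value, log2(TPM + 1), in WT pre-B cells (x axis), for genes with a MACS2 promoter peak in both, 1 or no WT LSK library (deposited symbols). Solid and dashed lines are WT pre-B replicates 1 and 2 and the vertical line marks 1 TPM; the curves of the 3 classes lie apart at 1 TPM while those of the replicates nearly coincide.

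Among genes that were expressed, the level went little with the score of an open promoter. Among expressed genes the median of the mean TPM was 38.0 TPM with a peak in both libraries, 32.3 with a peak in 1 and 11.9 without one (completed sums). Among the 7200 expressed genes with a peak in both libraries, Spearman's rho between the lower of the 2 peak scores (the score MACS2 gives a peak, higher for stronger enrichment) and mean TPM was -0.02, across genes, which are not independent. Over all 8981 such genes, silent ones included, rho was 0.15 in replicate 1 and 0.13 in replicate 2. The scores themselves ranked these promoters alike in the 2 LSK libraries (rho 0.84).

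The share of expressed genes rose from each score class to the next when the 8981 genes were divided into 5 classes by the lower score. In the lowest class, with scores of 10 to 27, 56.8% and 55.4% were expressed in replicates 1 and 2. In the highest class, with scores of 89 to 383, the shares were 79.3% and 77.8%. The difference between these classes was 22.5 points, and 25.3 points by completed sums. The median TPM of the 5 classes by completed sums was 11.3, 21.6, 29.4, 29.9 and 28.1, so it rose up to the middle class and was then nearly level.

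**Figure D2:**
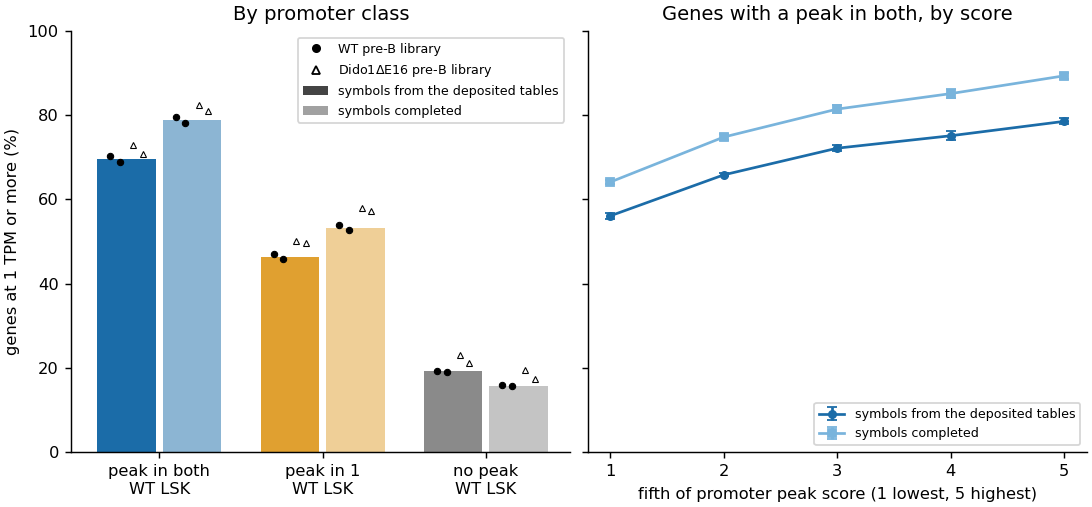
Left, share of genes at 1 TPM or more (y axis, %) by LSK promoter class; bars are the mean of the 2 WT pre-B libraries with deposited symbols (dark) or completed symbols (light), circles single WT and triangles single Dido1∆E16 libraries. Right, the same share for genes with a peak in both LSK libraries in 5 classes of peak score, points being the mean and bars the range of the WT libraries; with deposited symbols the single libraries stand at 55.4% and 56.8% in class 1 and at 77.8% and 79.3% in class 5.

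The same relation held in both Dido1∆E16 pre-B libraries when genes were classed by WT LSK promoters. Dido1 had an open promoter in both LSK libraries and 44.3 and 46.0 TPM in WT and 81.6 and 87.2 TPM in Dido1∆E16 pre-B replicates 1 and 2. The listed transcript that reaches furthest to the 3′ end, where exon 16 lies, had 35.7 and 35.05 TPM in WT and 14.9 and 19.4 TPM in Dido1∆E16 libraries. A shorter one ending upstream of it had 8.44 and 1.01 TPM in WT against 65.2 and 67.4 TPM. With a peak in both LSK libraries 72.9% and 70.9% of genes were expressed in Dido1∆E16 replicates 1 and 2, and without a peak 23.1% and 21.1%. In each of the 3 classes both Dido1∆E16 values lay above both WT values. The gap between open genes and genes without a peak was 51.1 and 49.8 points in WT and 49.8 and 49.8 points in Dido1∆E16 libraries. The gap differed by 0.629 points, less than the spread between the WT libraries (SD 0.924), and an exact two-sided permutation test over the 4 libraries gave p = 1, where 0.33 is the smallest p it allows. Such a p measures only the spread between these pools.

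Read from the side of expression, 67.5% of the 9519 expressed genes had an open promoter in both LSK libraries, 18.0% in 1 and 14.5% in none. Of the genes listed at 0 in both WT pre-B libraries, 24.0% were open in both. The share open in both was 57.0% from 1 to under 10 TPM, 70.9% from 10 to under 100 TPM and 72.6% from 100 to under 1000 TPM. It fell back to 52.1% of the 71 genes at 1000 TPM and over. With completed sums 97 genes reached 1000 TPM, of which 46 were open in both, 19 in 1 and 32 in none. The 32 included 7 mitochondrial genes, where no ATAC peak was listed, 4 genes named as retrocopies of ribosomal protein genes, which can share reads with their parents, 5 predicted or microRNA genes and Ighm. The 15 others included Vpreb3, Cd79a, Spib, Fth1 and Cd52.

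Several of the most abundant mRNAs of pre-B cells came from promoters that had no peak in LSK cells. Vpreb3, an assembly factor of the pre-B cell receptor, had 4522 and 5394 TPM in WT replicates 1 and 2. Cd79a had 3648 and 4476 TPM. Spib, an ETS transcription factor of B cells, had 2705 and 2776 TPM. In all 3 genes both libraries were far above the 1 TPM threshold and no promoter peak was called by MACS2 or HOMER. Ranked by the deposited symbols, and leaving out predicted genes, small RNAs and immunoglobulin segments, the other genes among the 10 of highest TPM without a promoter peak were Jund, Pfn1, Ptprcap, Chchd10, Lsp1 and 2 loci without a gene name, AK142750 on the mitochondrial chromosome and AK220016 on chromosome 5. Jund, an AP-1 factor, had 1131 and 4147 TPM, so its replicates stood far apart. By completed sums 4 mitochondrial genes and the retrocopy Rps27rt took the places of the 5 with gene names given here, and Ly6e (2155 and 2493 TPM) stood before Ptprcap. Pfn1 (profilin) had 2340.1 and 2314 TPM and Ptprcap, a partner of CD45, 1518 and 1613 TPM. Both of them, Jund and Lsp1 had a HOMER promoter peak in 1 LSK library, so the call depended on the peak caller. Pax5, the factor that commits cells to the B lineage, had 805 and 835 TPM, no promoter peak, and 1 and 3 peaks elsewhere in LSK replicates 1 and 2.

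The annotation assigns each peak to 1 gene only, so a promoter shared by neighbours can count for 1 of them alone. Of 1384 expressed genes without an annotated promoter peak, 567 had a peak of both LSK libraries that overlapped their promoter window without being annotated as a promoter peak of theirs, and 102 had one in 1 library. Which gene or feature those peaks were annotated to was not tabulated. The remaining 715 were 12.1% of 5885 genes without any peak in the window. When classed by window overlap, 70.7% of 10719 genes with a peak in both libraries were expressed by mean TPM, and 41.3% of 2969 with a peak in 1. Vpreb3, Cd79a, Spib and Pax5 had no peak in the window either. Rag2, a subunit of the V(D)J recombinase, had 282 and 165 TPM and overlapped a peak of both libraries, and so did Lef1 (80.5 and 43.2 TPM).

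Where the promoter had no peak, genes with and without peaks elsewhere were expressed about as often by completed sums, but not with the deposited symbols. Among genes without a promoter peak, 16.9% of the 2783 with another peak in both LSK libraries were expressed, 16.8% of the 2274 with one in 1 library and 15.8% of the 8385 with none (completed sums). With the deposited symbols these shares were 14.8% with another peak in both libraries, 14.3% with one in 1 library and 33.0% of 1957 genes with none. A gene without any WT MACS2 peak entered that class through the expression table, a HOMER peak or a peak of a Dido1∆E16 library. Among genes with an open promoter in both libraries, 87.0% of those without another peak were expressed, and 74.6% of those with another peak in both. Those 3120 and 3847 genes had median TPM of 31.9 and 17.8.

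The class with a peak in 1 library was not uniform. A promoter peak in the deeper LSK replicate 2 alone was found in 3148 genes, of which 44.1% and 43.0% were expressed in WT pre-B replicates 1 and 2. A peak in the shallower replicate 1 alone was found in 430 genes, of which 67.9% and 65.8% were expressed, close to the shares of the class open in both. Rag1 was among the former, with a promoter peak in replicate 2 alone at a score of 26 and 831 and 696 TPM. Gata2 and Hoxa10, both of stem cells, were among the latter and were listed at 0 TPM in both pre-B libraries. For Gata2, HOMER called a promoter peak in both LSK libraries.

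Promoters open in LSK cells of genes that were off in pre-B cells were fewer than the deposited symbols showed. Leaving out predicted and small RNA genes and immunoglobulin segments, 2188 genes open in both LSK libraries were under 1 TPM in both WT pre-B libraries, and 1492 of these were still under a mean of 1 TPM by completed sums. The 10 with the highest scores included Zfp317, Fancb, Aasdhppt, Mon1b, Scai, Uggt2, Kmt5c, Trim45 and Arrdc4. Of the 10 only Uggt2 and Arrdc4 were at 0 by completed sums, while Kmt5c, a histone H4 methyltransferase, had a mean of 51.7 TPM and Mon1b had 37.4 TPM. By completed sums, counted with the same exclusions, 1464 genes open in both libraries were under 1 TPM in both. Uggt2, a glucosyltransferase of the endoplasmic reticulum, led them with scores of 269 and 281, followed by Arrdc4 (238 and 424), Macrod2, Garem1 and Cpq. Ctla2a, Gata3 and Flt3 were also among them. Of the 1464 genes, 833 had a further peak outside the promoter in both LSK libraries.

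Ranked by the deposited symbols, the genes of highest TPM with an open promoter in both LSK libraries were Tmsb4x, Eef1a1, B2m, Actb and Ucp2. By completed sums Ubb, a polyubiquitin gene, with 3135 and 3576 TPM, stood before Ucp2. Tmsb4x (thymosin beta-4) had 3466 and 5075 TPM, Eef1a1 (translation elongation factor) 3763 and 4441 TPM and B2m (the light chain of MHC class I) 3293 and 3723 TPM. Actb had 3598 and 3418 TPM and Ucp2, a mitochondrial carrier, 3711 and 2876 TPM. Their peak scores were low to middling, with 22 and 89 for Tmsb4x and 20 and 59 for Ucp2 in LSK replicates 1 and 2.

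B-lineage genes were all expressed, whatever their LSK promoter class. Of 20 genes of pre-BCR and B cell receptor signalling, 7 were open in both LSK libraries, 6 in 1 and 7 in none, and all 20 were expressed in both WT pre-B libraries (18 by the deposited symbols). The 35% open in both stood beside 34.5% of all 26001 genes, of which 43.5% were expressed. The 7 without a promoter peak included Vpreb1, Vpreb3, Igll1 and Cd79a. Vpreb1 had 108 and 40.9 TPM and Igll1 112 and 34.4 TPM, both lower in replicate 2. Cd79b was open in LSK replicate 2 alone and had 3393 and 4458 TPM. Among the genes open in both, Cd24a had the highest level (2631 and 2424 TPM), the kinase gene Syk had 1675 and 1525 TPM and Bank1 had the lowest level (42.6 and 62.9 TPM). The others open in both were Lyn, Plcg2, Ptprc and Cd81.

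Of 23 B-lineage transcription factors 14 were open in both LSK libraries, 6 in 1 and 3 in none, and all 23 were expressed (22 by the deposited symbols). Of all genes 34.5% were open in both and 43.5% were expressed. Spib, Pax5 and Lef1 had no promoter peak. Ebf1, which starts the B cell program, had a peak in LSK replicate 2 alone, with a score of 147 and 12 further peaks there, HOMER promoter peaks in both libraries, and 465 and 457 TPM by completed sums against 12.8 and 7.32 TPM by the deposited symbols. Pou2af1, a B cell coactivator, was open in replicate 2 alone and had 2128 and 1732 TPM. Tcf3, open in both, had 1141 and 912 TPM. Foxo1, Ikzf1, Irf4, Spi1 and Bach2 were also open in both and had from 300.1 to 630.5 TPM in each library. Pou2f1 had the lowest level (22.3 and 14.2 TPM).

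In the group of V(D)J recombination and end joining, 8 of 15 genes were open in both LSK libraries, 2 in 1 and 5 in none, and 15 were expressed, beside 34.5% of all genes open in both and 43.5% expressed. Among the 8 were Lig4 (81.1 and 137 TPM), Polm (444 and 541 TPM) and Hmgb1 (254 and 140 TPM). The 5 without an annotated promoter peak were Rag2, Dntt and the end-joining genes Prkdc, Nhej1 and Poll. Of these, Rag2 and Prkdc overlapped a peak of both libraries. Xrcc6, also of end joining, had an annotated MACS2 promoter peak in LSK replicate 1 alone. Its promoter window overlapped a MACS2 peak of both libraries, and HOMER called a promoter peak in both. Dntt, the template-independent polymerase of early lymphoid cells, had no promoter peak, 3 and 5 other peaks, and 48.7 and 7.18 TPM.

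Of 18 surface proteins 7 were open in both LSK libraries, 7 in 1 and 4 in none, and 10 had a mean of at least 1 TPM (7 by the deposited symbols). The 38.9% open in both stood beside 34.5% of all genes, and the 55.6% expressed beside 43.5%. Cd34 had peak scores of 82 and 183 and was at 0 and 0.0320 TPM. Flt3, a cytokine receptor of early progenitors, had scores of 67 and 163 and 0.623 and 0 TPM. Kit, the stem cell factor receptor, had scores of 28 and 102 and 1.63 and 0.599 TPM. These 3 genes lay near or under the threshold in both libraries. Il7r, the receptor on which pre-B cells depend, was also open in both and had 442 and 313 TPM, and Cd93 had 363 and 293 TPM. Ly6a had no promoter peak and 22.3 and 13.7 TPM.

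Of 22 stem cell transcription factors 10 were open in both LSK libraries, 9 in 1 and 3 in none, and 14 were expressed (12 by the deposited symbols). These were 45.5% open in both and 63.6% expressed, beside the same 34.5% and 43.5% of all genes. All 10 open in both except Ikzf2 had a mean of at least 1 TPM, among them Zfpm1 (350 and 258 TPM), Lyl1 (134 and 236 TPM) and Hhex (109 and 91.7 TPM). Meis1 had 3.10 and 5.75 TPM and Mycn 1.37 and 3.48 TPM. Gata2, Hoxa10, Hlf, Mecom and Tal1 had a MACS2 promoter peak in 1 library and were listed at 0 in both pre-B libraries. Fli1 and Lmo2, with a peak in 1 library as well, had 172 and 195 TPM and 23.6 and 21.9 TPM. HOMER promoter peaks were called in both LSK libraries for Gata2, Hlf, Mecom, Tal1 and Fli1, and in 1 for Hoxa10 and Lmo2. The promoter window of Tal1 also overlapped a MACS2 peak of both libraries.

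Among the lists of other lineages, 9.09% of neutrophil and monocyte genes, 10.5% of erythroid and megakaryocyte genes and 10% of T and NK cell genes were open in both LSK libraries, beside 34.5% of all genes, while mature and plasma B cell genes, at 30%, lay near that share. Among 22 neutrophil and monocyte genes 2 were open in both (Csf3r and Cebpa), 8 in 1 and 12 in none. With a mean of at least 1 TPM, 20 of the 22 counted as expressed, 14 in replicate 1 and 20 in replicate 2. Over all genes 43.5% were expressed, which also stands beside the counts of the lists that follow. S100a9 had 72.8 and 699 TPM, Ngp 57.4 and 463 TPM and Lcn2 15.5 and 156 TPM, all without a promoter peak. Of 20 T and NK cell genes 2 were open in both, and 6 were expressed (3 by the deposited symbols), led by Cd2 (582 and 1052 TPM), which mouse B cells also express. Of the 19 listed erythroid and megakaryocyte genes with a value 2 were open in both (Car2 and Tfrc), and 8 were expressed (42.1%, near the share of all genes). Mature and plasma B cell genes had 6 of 20 open in both, 9 in 1 and 5 in none, and 18 were expressed, with Cd74 at 2687 and 2665 TPM and Fcmr, without a promoter peak, at 622 and 688 TPM. Of 29 genes of other tissues 25 had no promoter peak, beside 51.7% of all genes, and 28 were under 1 TPM. Col1a2 was the only one open in both and was listed at 0.

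Housekeeping groups were mostly open and expressed, beside 34.5% of all genes open in both and 43.5% expressed. Proteasome subunits had 28 of 31 genes open in both LSK libraries and 31 expressed, with a median of 147 TPM. Psma4, annotated with no promoter peak, overlapped a peak of both libraries. Of 79 cytosolic ribosomal protein genes 61 were open in both and 78 were expressed, and all 7 without an annotated promoter peak overlapped a peak in both libraries. Of 41 DNA replication genes 31 were open in both and all were expressed. Rrm2, a subunit of ribonucleotide reductase, had 350 and 63.4 TPM and Pcna 320 and 132 TPM, lower in replicate 2. Of 27 Polycomb genes 18 were open in both, and 26 were expressed, led by Ezh2 (482 and 206 TPM). Ring1 and Phf19 had no promoter peak and were expressed, at 41.9 and 65.4 TPM and at 11.9 and 3.02 TPM.

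**Figure D3:**
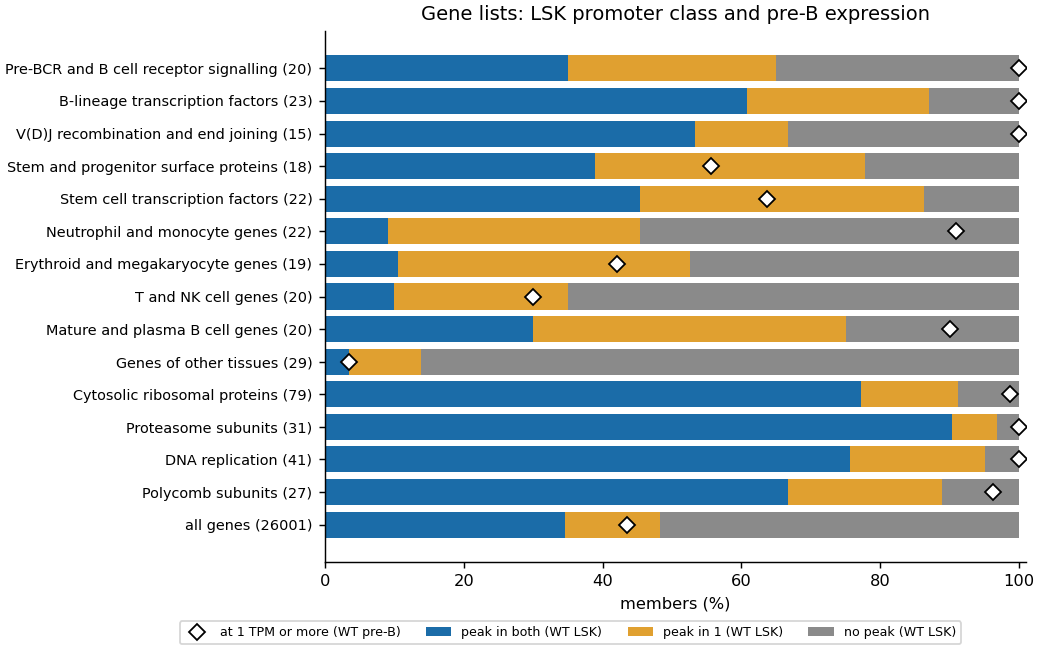
Share of the members of each gene list (x axis, %; number of genes in brackets) by LSK promoter class, as stacked bars, and share with a mean of at least 1 TPM in WT pre-B cells, as diamonds. The diamond stands at 100% for the first 3 lists, whose open share runs from 35% to 60.9%, and left of the share with any peak for both stem cell lists.

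Gene families were counted in the same way. Of all genes 34.5% were open in both, 51.7% had no promoter peak and 43.5% were expressed. Of 1114 olfactory receptor genes 8 were open in both LSK libraries and 2 had a mean of at least 1 TPM, and of 332 vomeronasal receptor genes 1 was open in both and 1 was expressed. Of 39 Hox genes 36 had no promoter peak and 2 were expressed. Among 394 Zfp zinc finger genes 275 were open in both, of which 228 were expressed. The replication-dependent histone genes, whose mRNAs lack a poly(A) tail, had 39 of 64 open in both and 60 expressed. Of 1069 microRNA genes 40 were open in both, 7 of them expressed. Of the whole family 180 genes (16.8%) were expressed, 170 of them without a promoter peak, though TPM of such short transcripts is imprecise.

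Promoters of the 3 classes differed in sequence, which the classes did not use. In the window from 250 bases before to 50 bases after the TSS of each gene's highest transcript, the median GC content was 61.0% with a peak in both LSK libraries, 60.0% with a peak in 1 and 49.3% with none. The median CpG ratio was 0.775, 0.685 and 0.247, and a ratio of at least 0.6 was found in 73.6%, 59.7% and 18.3% of promoters, against 43.1% of all. Within each class expressed genes had the higher ratio. It was 0.802 against 0.608 in genes open in both, 0.757 against 0.567 with a peak in 1 and 0.538 against 0.222 without a peak. Where all transcripts of a gene were at 0, as for 1419 genes open in both, the start was that of the first by identifier. Such a start need not be the one with the peak, and the part of this in the ratios was not tested. In expressed genes without any peak in the window the median ratio was 0.275.

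**Figure D4:**
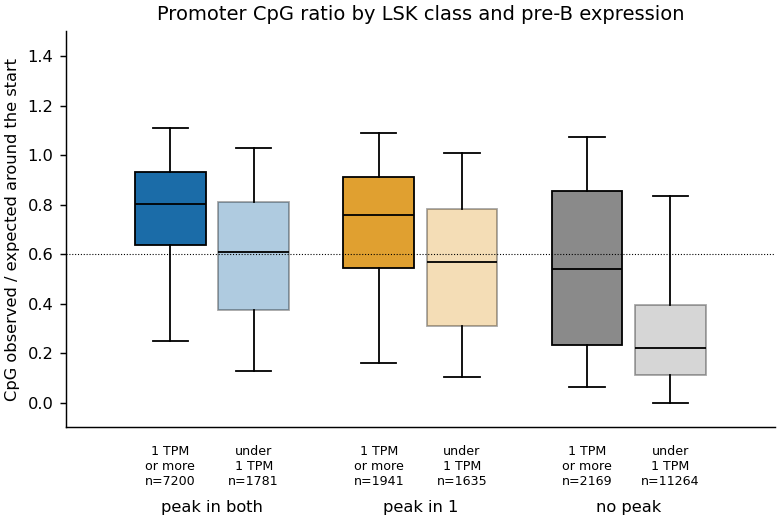
CpG observed over expected in the window around the TSS (y axis) by LSK promoter class and pre-B expression (completed sums); boxes show median and quartiles, whiskers the 5th and 95th percentiles, n the genes, and the dotted line a ratio of 0.6. In each class the median of expressed genes lies above that of genes under 1 TPM.

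Openness and CpG content each went with expression at a given level of the other. Among promoters with a CpG ratio of at least 0.6, 86.0% of genes with a peak in both LSK libraries were expressed, 64.3% with a peak in 1 and 41.4% with none (completed sums). Under 0.6 the shares were 63.9%, 39.4% and 10.5%. The numbers of genes behind the open and the closed classes were 6613 and 2464 at the higher ratio and 2368 and 10969 at the lower.

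Short motifs were searched on both strands of the same windows. The TATA box, searched as TATAAA, was in 6.98% of promoters open in both LSK libraries and 18.7% of those without a peak, beside 13.1% of all. The core of the EBF1 motif, CCCNNGGG, where N is any base, was in 17.5% of promoters open in both, 12.1% of those without a peak and 14.9% of all. In expressed genes without a peak it was in 16.2%, and it was in the window of Spib but not of Vpreb3 and Cd79a. The ETS core, GGAAGT, bound by factors such as PU.1 and SPIB, was in 28.1% of open promoters, 21.3% of those without a peak and 24.1% of all. It was in 30.2% of open promoters of expressed genes and 19.99% of open promoters of genes under 1 TPM. Of the latter 1781 genes, 1419 were at 0, so their window lay at the start of the first transcript by identifier. That start need not be the open one, and its part in this difference was not tested. The Runx core, TGTGGT, was in 12.2%, 17.9% and 15.2%. These matches describe letters and not binding, and GC content, whose part in the shares was not tested, differed between the classes as given above.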

How the data were processed

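Omni-ATAC-seq of LSK cells and RNA-seq of pre-B cells were measured in WT and Dido1∆E16 mice, with 2 libraries each, grouped by their labels. The methods give 3 ATAC-seq samples and the labels 2. Per the labels, reads were aligned to mm10, and the authors called peaks in each library with MACS2 and HOMER and annotated them with ChIPseeker. The deposited MACS2 score of a peak is the integer score of its caller. The authors deposited TPM and FPKM per UCSC transcript from StringTie 2.0, which was run on a given annotation. BWA 0.7.15 is named in the submitters' processing notes. Deposited columns of the authors' own comparisons (fold changes and p-values) were not used. One of these tables served only to pair transcripts with symbols.

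TPM were summed per symbol and no filter on low values was used. Intervals were compared with bedtools 2.31.1, values with Python 3.11.15 (scipy 1.17.1, numpy 2.4.6 and pandas 2.3.3), and plots drawn with matplotlib 3.10.9. The class shares were tested on simulated data. No test was run across genes. Completed symbols (GENCODE vM21, same strand) and classes by overlap of any peak with the promoter window of a gene were chosen after seeing the data. The members and gene lists were chosen with earlier results of these data known. Named were, of each list, genes of highest and lowest TPM per class, the 10 genes of highest TPM without a promoter peak, the 10 of highest score among genes open in both libraries and under 1 TPM, and the 5 of highest TPM among open genes, leaving out predicted genes, small RNAs and immunoglobulin segments. Other genes were named after their values were seen. Promoter windows were read from the GRCm38.p6 genome at the start of the gene's highest transcript (the first by identifier where all were at 0), since the RefSeq promoter table held fewer than 80% of the genes. The octamer was added after the Vpreb3 sequence was seen. The depth of the ATAC-seq libraries is in the tag totals, and limits the calls of the shallower library. Some genes counted in the lists are not reported here by name.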

Additional observations from a re-analysis of the deposited data

How the results depend on the processing

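In 19 of 19 settings with both classes the share expressed was higher for genes open in both LSK libraries than for genes without a promoter peak, and in 17 of 17 settings with a peak in exactly 1 library that class lay between. Its size depended on which genes and transcripts were counted. Of 115 values under 24 alternatives, 47 counted as the same. For shares, medians and score differences this meant a move of less than 1 SD. For the WT minus Dido1∆E16 difference in the gap it meant only the same sign. Values below are the shares expressed with a peak in both, 1 and no library (69.6%, 46.4% and 19.1% in the report), the median TPM of open genes (14.9), and the open share of expressed genes (67.6%), where they moved. The cause was not tested.

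HOMER peaks gave 18.7% without a peak and an open share of 64.4%. An equal number of best peaks from each library (27352) gave 72.3%, 54.3% and 22.96%, a median of 17.1 and 63.4%. Peaks within 500 bp of the TSS gave an open share of 67.2%. A threshold of 0.5 TPM gave 70.9%, 47.5%, 20.7% and 66.9%, and 5 TPM gave 61.8%, 39.5%, 13.7% and 70.04%. FPKM gave 65.2%, 42.2%, 15.5%, a median of 4.93 FPKM and 69.2%. Genes in the authors' expression table gave 86.6%, 79.8%, 54.8%, 29.5 and 68.4%. Leaving out predicted genes, small RNAs and receptor families gave 71.1%, 48.7%, 22.1%, 16.8 and 69.3%. Genes above 0 TPM in both WT libraries gave 97.5%, 96.7%, 87.6%, 35.2 and 68.3%. Symbols from the WT MACS2 tables alone gave 63.5%, 42.9%, 12.9%, 9.20 and 72.3%. Completed symbols gave 79%, 53.3%, 15.7%, 24.0 and 63.8%. Window overlap gave 39.997% with a peak in 1 library, 11.8% without one and 79.7%. Both of these together gave 76.4%, 43.4%, 9.64%, 21.1 and 77.3%. The difference between the highest and lowest score class was 22.5 points, 24.1 with mean scores and 25.3 with completed symbols.

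Leaving out 1 ATAC-seq library gave 62.8% to 69.4% for open genes, 21.9% to 26.7% without a peak, medians of 9.38 to 14.7 and open shares of 70.7% to 82.4%, and no class with a peak in 1 library. Leaving out 1 WT RNA-seq library gave 68.9% to 70.3%, 45.7% to 47.0%, 19.1% to 19.2%, medians of 14.0 to 15.7 and open shares of 67.5% to 67.6%. Of the gene lists, expressed counts moved by over 1.5 times with completed symbols for T and NK cell genes (6) and genes of other tissues (1).

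The WT minus Dido1∆E16 difference in the gap was 0.629 points and also 0.629 points with a replicate block (exact sign-flip test, p = 1). Replicate numbers pair no animals between the groups. It was 3.11 points with genes in the authors' expression table (exact permutation p = 0.33) and 1.48 points without predicted genes, small RNAs and receptor families. It turned to -0.921 points at 5 TPM, -0.572 points with FPKM, -1.63 points with genes above 0 TPM in both WT libraries, -0.124 points with completed symbols and -0.0159 as a difference of mean log2(TPM + 1). Leaving out 1 library gave -0.0244 to 1.28 points. By exact permutation tests, p ranged from 0.33 to 1 over these alternatives.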
